A study of Homo sapiens with 12 samples.

Results

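The transcripts of 10 receptor tyrosine kinase genes were followed across 4 HEK293T lines that carry different forms of EZH2. The genes were the 4 members of the ERBB family (*EGFR*, *ERBB2*, *ERBB3* and *ERBB4*), *MET*, the 4 fibroblast growth factor receptors (*FGFR1* to *FGFR4*) and *IGF1R*. They were taken by symbol from the deposited table of counts per gene, in which all 10 were found among 14438 genes, and all 10 were among the 14263 genes tested. HEK293T is a human embryonic kidney cell line. Each line was made by infection with lentivirus carrying wild-type EZH2 (EZH2 WT), one of the gain-of-function (GOF) mutants EZH2 Y641F and EZH2 A677G, or the loss-of-function (LOF) double mutant EZH2 H689A/F667I, and was selected with the antibiotic blasticidin. The lines are called WT, Y641F, A677G and LOF. All 4 lines therefore keep the endogenous *EZH2* gene, and each stands for 1 infected population, selected with the aim of a monoclonal one, so that a difference between lines and an effect of the mutation cannot be told apart. Uninfected cells and an empty vector line were not analysed here. RNA was sequenced from 3 samples per line. The labels do not say whether the replicates came from separate cultures, so the p-values measure the spread between these samples.

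Receptor tyrosine kinases are membrane proteins that bind growth factors outside the cell. They act in pairs and phosphorylate tyrosines inside the cell, from which the RAS-ERK and PI3K-AKT cascades are switched on. EGFR binds EGF and related ligands, ERBB2 has no known soluble ligand and acts as a partner of the other ERBB receptors, ERBB3 and ERBB4 bind neuregulins, MET binds hepatocyte growth factor, and IGF1R binds insulin-like growth factors. EZH2 is the catalytic subunit of the Polycomb repressive complex PRC2, which methylates lysine 27 of histone H3, a mark found at repressed genes. The study placed *EGFR* and *MET* among the genes lowered in its GOF lines on these same samples, so their direction here is not independent evidence. For *EGFR* it also reported more H3K27 trimethylation and less open chromatin in both GOF lines, and lower transcript by qPCR. It further placed EGFR in the protein network of its LOF mutant. Those other assays were not analysed here.

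Total counts per sample ranged from 32137700 to 44562413, and no pair of replicates agreed within sampling noise. A gene was called lower or higher where its adjusted p-value was under 0.05 in a fit to all 12 samples, and log2 fold changes are the mutant line minus WT, with negative values for less transcript in the mutant. Values are given as CPM, the usual scaling of a gene's counts to the size of the library, here with TMM factors. In a principal component analysis of log2 CPM, replicate 1 of Y641F stood apart, with a score of 5.60 on the first component where the other 5 GOF samples scored 15.2 to 17.7 and the 6 samples of WT and the LOF line -16.3 to -13.8. Calls in Y641F that were gained or lost without it, and called values that moved by over 1.5 times, are therefore given as well. The 12 HEK293T marker genes were all listed and summed to 1781 to 1814 CPM per sample in WT and 1620 to 1771 in Y641F. The sums were 1594 to 1625 CPM in A677G and 1623 to 1706 in the LOF line. Much of this was *IRS4*, at 940 ± 8.07 CPM in WT, and *PAX2* was at 0 in A677G. Of the 11 markers tested, 3 were lower and 2 higher in each GOF line (of all genes, 5.59% and 2.09% in Y641F, 6.48% and 2.07% in A677G). In the LOF line 2 were lower and 0 higher (0.161% and 0.14%). Of markers of other cell types, none of 3 endothelial genes, 2 of 5 blood genes and 2 of 4 genes of differentiated epithelium were listed, and those listed summed to at most 4.69 CPM per list. The 3 fibroblast genes listed (*COL1A1*, *COL3A1* and *LUM*) summed to 11.4 to 12.8 CPM in WT, 14.9 to 25.1 in Y641F, 13.0 to 14.7 in A677G and 12.4 to 16.4 in the LOF line, and their part in the results was not tested. *EZH2* itself, introduced and endogenous together, was at 158 ± 4.32 CPM (SD, n = 3) in WT, 218 ± 9.61 in Y641F, 173 ± 8.57 in A677G and 208 ± 2.03 in the LOF line.

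Promoter windows are shown for the 4 genes whose transcripts fell in a GOF line and for *ERBB2*, whose transcript did not fall. Each runs from 250 bases before to 50 bases after the start given by RefSeq on GRCh38.p14, 5′ to 3′ on the gene's strand, and the capitals mark GGGCGG or its complement CCGCCC, the core of a GC box. The windows are chr7:55018767-55019066 for *EGFR*, chr7:116671946-116672245 for *MET*, chr2:212538753-212539052 on the minus strand for *ERBB4*, chr15:98648289-98648588 for *IGF1R* and chr17:39687844-39688143 for *ERBB2*.
EGFR: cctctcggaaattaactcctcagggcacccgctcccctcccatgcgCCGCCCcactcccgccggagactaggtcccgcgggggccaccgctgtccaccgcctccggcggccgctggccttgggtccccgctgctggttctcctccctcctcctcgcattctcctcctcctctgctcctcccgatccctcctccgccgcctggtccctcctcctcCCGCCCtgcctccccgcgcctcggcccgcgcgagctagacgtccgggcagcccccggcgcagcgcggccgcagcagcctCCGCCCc
MET: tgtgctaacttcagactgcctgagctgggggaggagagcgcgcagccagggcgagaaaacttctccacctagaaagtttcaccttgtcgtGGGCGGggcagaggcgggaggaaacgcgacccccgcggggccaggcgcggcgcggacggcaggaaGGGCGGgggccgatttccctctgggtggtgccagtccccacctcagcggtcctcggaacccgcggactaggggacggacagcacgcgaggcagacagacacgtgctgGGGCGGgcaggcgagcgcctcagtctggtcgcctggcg
ERBB4: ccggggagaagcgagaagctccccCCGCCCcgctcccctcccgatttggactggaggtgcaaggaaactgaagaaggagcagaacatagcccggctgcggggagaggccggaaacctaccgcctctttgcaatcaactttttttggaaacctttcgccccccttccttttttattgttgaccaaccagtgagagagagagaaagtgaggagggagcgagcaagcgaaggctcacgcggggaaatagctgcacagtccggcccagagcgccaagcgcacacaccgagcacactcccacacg
IGF1R: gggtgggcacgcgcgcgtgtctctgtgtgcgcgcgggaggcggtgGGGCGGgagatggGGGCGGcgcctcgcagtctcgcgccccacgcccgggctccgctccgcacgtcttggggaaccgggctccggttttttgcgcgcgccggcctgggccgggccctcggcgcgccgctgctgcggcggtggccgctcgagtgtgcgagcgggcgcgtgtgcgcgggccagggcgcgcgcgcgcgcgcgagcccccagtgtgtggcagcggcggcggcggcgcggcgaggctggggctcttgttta
ERBB2: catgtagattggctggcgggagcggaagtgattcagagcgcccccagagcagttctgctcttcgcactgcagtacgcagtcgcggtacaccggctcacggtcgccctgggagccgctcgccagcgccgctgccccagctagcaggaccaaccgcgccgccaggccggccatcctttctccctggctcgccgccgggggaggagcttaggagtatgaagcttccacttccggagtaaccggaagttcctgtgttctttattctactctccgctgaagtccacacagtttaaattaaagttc

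The motif occurred 3 times in the *EGFR* window, 3 times in that of *MET*, 2 times in that of *IGF1R*, 1 time in that of *ERBB4* and 0 times in that of *ERBB2*. It was present in 65.7% of all windows of tested genes, counting both strands, and in 44.95% of all 35116 windows. The windows of FGF receptors, which did not pass the threshold in any comparison, held it as well, with 8 in *FGFR3*, 7 in *FGFR4* and 5 in the first window of *FGFR2*. None of these first windows held TATAAA on either strand, which 6.17% of the windows of tested genes did. GC content was 75.3% for *EGFR*, 69.3% for *MET*, 79.7% for *IGF1R*, 59.0% for *ERBB4* and 60.7% for *ERBB2*, against a median of 65.0% over the windows of tested genes. The ratio of observed to expected CpG was 0.893, 0.850, 1.19, 0.728 and 0.873 in the same order, against a median of 0.811. A second window of *EGFR*, chr7:55109589-55109888, is not shown. It held GGGCGG 0 times and TATAAA 2 times, with 42.0% GC and a CpG ratio of 0.0758. The *ERBB2* window, the 1 given for this gene, lies at the 5′ end of the annotated gene (chr17:39687914-39730426). Exons of *ERBB2* overlap *PGAP3* on the opposite strand. Whether *ERBB2* transcription in these cells starts in this window was not tested, so its values may not describe the promoter in use. These are descriptions of sequence, and no binding or methylation was measured in these libraries.

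The 10 genes lie on 9 chromosomes of GRCh38 (GENCODE annotation). *EGFR* (ENSG00000146648.21, chr7:55019017-55211628) and *MET* (ENSG00000105976.16, chr7:116672196-116798377) share chromosome 7. *ERBB2* (ENSG00000141736.14) lies at chr17:39687914-39730426, *ERBB3* (ENSG00000065361.17) at chr12:56076799-56103505, *ERBB4* (ENSG00000178568.16) at chr2:211375717-212538841 and *IGF1R* (ENSG00000140443.15) at chr15:98648539-98964530. *FGFR1* (ENSG00000077782.23) lies at chr8:38400215-38468834, *FGFR2* (ENSG00000066468.24) at chr10:121478332-121598458, *FGFR3* (ENSG00000068078.20) at chr4:1793293-1808872 and *FGFR4* (ENSG00000160867.15) at chr5:177086905-177098144. *ERBB4*, *FGFR1* and *FGFR2* are on the minus strand. Exons of *EGFR* overlap the antisense RNA *EGFR-AS1*, and those of *ERBB2* overlap *PGAP3* and *MIEN1* on the opposite strand. Those of *FGFR1* overlap *LETM2* and a long noncoding RNA (ENSG00000255201) on the opposite strand. Those of *ERBB3* overlap another annotated gene (ENSG00000257411) on the same strand. The libraries were stranded, but whether counting used the strand is not given in the sources used here, so reads of these overlaps may be shared.

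Levels of different receptors were compared per kilobase of merged exons. In WT, *FGFR3* was highest at 17.6 ± 0.514 CPM per kb (SD, n = 3), then *MET* at 13.1 ± 0.274, *IGF1R* at 7.23 ± 0.242, *FGFR4* at 5.94 ± 0.213, *ERBB2* at 5.06 ± 0.245, *FGFR1* at 4.29 ± 0.230 and *FGFR2* at 2.07 ± 0.182. The remaining ERBB receptors were lowest, with *ERBB4* at 0.759 ± 0.0800 CPM per kb, *EGFR* at 0.531 ± 0.0204 and *ERBB3* at 0.210 ± 0.0128. In WT no neighbours in this order overlapped between replicates. *FGFR4* and *ERBB2* overlapped in each of the 3 mutant lines and changed places in A677G, where *ERBB2* was at 5.67 ± 0.312 CPM per kb and *FGFR4* at 5.52 ± 0.305. *EGFR* and *ERBB3* overlapped in Y641F, at 0.306 ± 0.0482 and 0.229 ± 0.0669 CPM per kb. The order of the other neighbours was the same in all 4 lines. The order depends on the length used, since with the longest transcript in place of merged exons 4 of the 10 receptors kept their rank in WT.

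**Figure D1:**
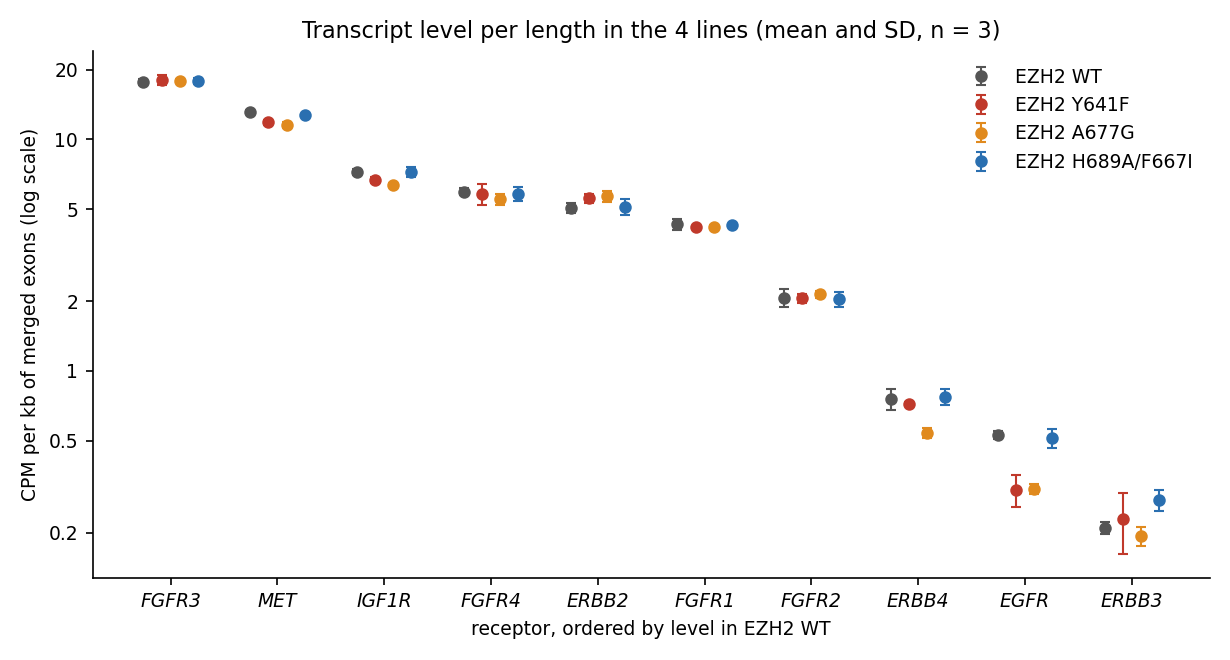
Transcript level of each receptor in CPM per kilobase of merged exons (log scale), as the mean (point) and SD (bar) of 3 replicates in each of the 4 lines. FGFR3 is highest at 17.6 and ERBB3 lowest at 0.210 in WT, and EGFR is at about 0.3 in the GOF lines and 0.5 in the other lines.

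*EGFR*, the receptor of EGF, was lower in both GOF lines and not in the LOF line. It was at 8.09, 8.70 and 8.60 CPM in replicates 1 to 3 of WT, 5.68, 4.15 and 4.80 in Y641F, 5.21, 4.72 and 4.85 in A677G and 8.82, 8.33 and 7.35 in the LOF line, from raw counts of 158 to 336. All 6 GOF samples were below all 6 samples of WT and the LOF line. The log2 fold change against WT was -0.79 in Y641F (standard error 0.124, adjusted p = 2.37e-05 by the quasi-likelihood test of edgeR, after Benjamini-Hochberg adjustment) and -0.78 in A677G (standard error 0.124, adjusted p = 2.78e-05), that is 42.2% and 41.7% less transcript. In the LOF line it was -0.05 (95% interval -0.29 to 0.19, adjusted p = 0.948 by edgeR). In bulk RNA, fewer cells with the transcript and less transcript per cell cannot be told apart. *EGFR* remained past the threshold in both GOF lines in all 14 other settings without a minimum fold change and in all 12 fits with 1 sample left out, and without replicate 1 of Y641F its log2 fold change there was -0.92.

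*MET*, the receptor of hepatocyte growth factor, fell less. It was at 92.8, 94.6 and 96.7 CPM in WT, 86.4, 83.1 and 86.7 in Y641F, 83.1, 86.1 and 80.8 in A677G and 92.3, 93.2 and 91.0 in the LOF line. As with *EGFR*, all GOF samples lay below all samples of WT and the LOF line, but the gap was narrow. The log2 fold change was -0.15 in Y641F (standard error 0.0409, adjusted p = 0.0171 from edgeR), -0.18 in A677G (standard error 0.0410, adjusted p = 0.00224) and -0.04 in the LOF line (95% interval -0.12 to 0.05, adjusted p = 0.862). In A677G the call was kept in all other settings without a minimum fold change and in all left-out fits. In Y641F it was lost when the fit held only the compared groups (adjusted p = 0.0556 by edgeR), and with the trend with GC content removed (0.0940, and 0.102 with the replicate block as well). It was also lost without replicate 2 of WT (adjusted p = 0.0611 by edgeR), without replicate 3 of WT (0.0759) or without replicate 2 of Y641F (0.0717).

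*ERBB4*, a neuregulin receptor, passed the threshold in A677G, where it was lower, and not in the other mutant lines. Its values were 10.9, 9.99 and 8.78 CPM in WT, 9.46, 9.11 and 9.51 in Y641F, 6.64, 7.30 and 7.18 in A677G and 9.15, 10.4 and 10.6 in the LOF line. The 3 samples of A677G were the lowest of the 12, while the other lines overlapped. The log2 fold change was -0.49 in A677G (standard error 0.106, adjusted p = 0.00154 from edgeR), -0.08 in Y641F (95% interval -0.29 to 0.13, adjusted p = 0.752) and 0.02 in the LOF line (95% interval -0.19 to 0.23, adjusted p = 0.974). The direct comparison of Y641F with A677G gave 0.41 (standard error 0.105), which did not pass the threshold after adjustment (unadjusted p = 0.000387, adjusted p = 0.156 from edgeR). When the 175 genes with 0 counts in every replicate of A677G or the LOF line were kept in the test, the adjusted p of this difference was 0.0323, with the same log2 fold change.

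*IGF1R*, the receptor of insulin-like growth factor 1, was also lower in A677G. It was at 100.2, 97.7 and 104 CPM in WT, 96.3, 90.8 and 92.7 in Y641F, 87.7, 88.9 and 90.0 in A677G and 95.4, 105 and 101 in the LOF line. Samples of both GOF lines were all below those of WT. The log2 fold change of -0.18 in A677G passed the threshold (standard error 0.0427, adjusted p = 0.00400 from edgeR), and that of -0.11 in Y641F did not (standard error 0.0426, adjusted p = 0.115, and 0.0561 without replicate 1). With the trend with GC content removed, the value in A677G was -0.12 and no longer passed (adjusted p = 0.0546 by edgeR). In the LOF line it was -0.003 (95% interval -0.09 to 0.08, adjusted p = 0.991). The closest relative in the table, *INSR*, the insulin receptor, was at 51.1 ± 1.41 CPM (SD, n = 3) in WT and did not pass the threshold in any of the 5 comparisons, with log2 fold changes of 0.13 in Y641F (adjusted p = 0.187 by edgeR), 0.06 in A677G (0.594) and -0.03 in the LOF line (0.935).

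*ERBB2*, the partner receptor of the ERBB family, did not fall. It was at 51.7, 55.0 and 49.99 CPM in WT, 58.1, 54.4 and 59.4 in Y641F, 55.6, 57.9 and 61.9 in A677G and 52.0, 49.0 and 57.0 in the LOF line. The samples of A677G lay above those of WT, and the other mutants overlapped with it. The log2 fold changes of 0.13 in Y641F (standard error 0.0548, adjusted p = 0.146 from edgeR) and 0.16 in A677G (standard error 0.0548, adjusted p = 0.0594) did not pass the threshold, and the latter did in 6 of 14 other settings, among them edgeR's exact test (adjusted p = 0.0125). In the LOF line it was 0.01 (95% interval -0.10 to 0.12).

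*ERBB3*, a neuregulin receptor with little kinase activity of its own, had the fewest counts, 82 to 148. It was at 2.44, 2.33 and 2.62 CPM in WT, 3.52, 2.57 and 1.96 in Y641F, 2.38, 2.02 and 2.39 in A677G and 2.98, 3.62 and 3.17 in the LOF line. Only in the LOF line were all replicates on the same side of WT, with a log2 fold change of 0.40 (standard error 0.198) that did not pass the threshold (unadjusted p = 0.0485, adjusted p = 0.599 from edgeR). In the GOF lines the 95% intervals were -0.28 to 0.53 for Y641F and -0.53 to 0.29 for A677G, so that at this depth a change of the size seen for *ERBB4* in A677G would lie within the interval of A677G. The value in Y641F was 0.13, and -0.12 without replicate 1 (adjusted p = 0.806 and 0.817 by edgeR).

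**Figure D2:**
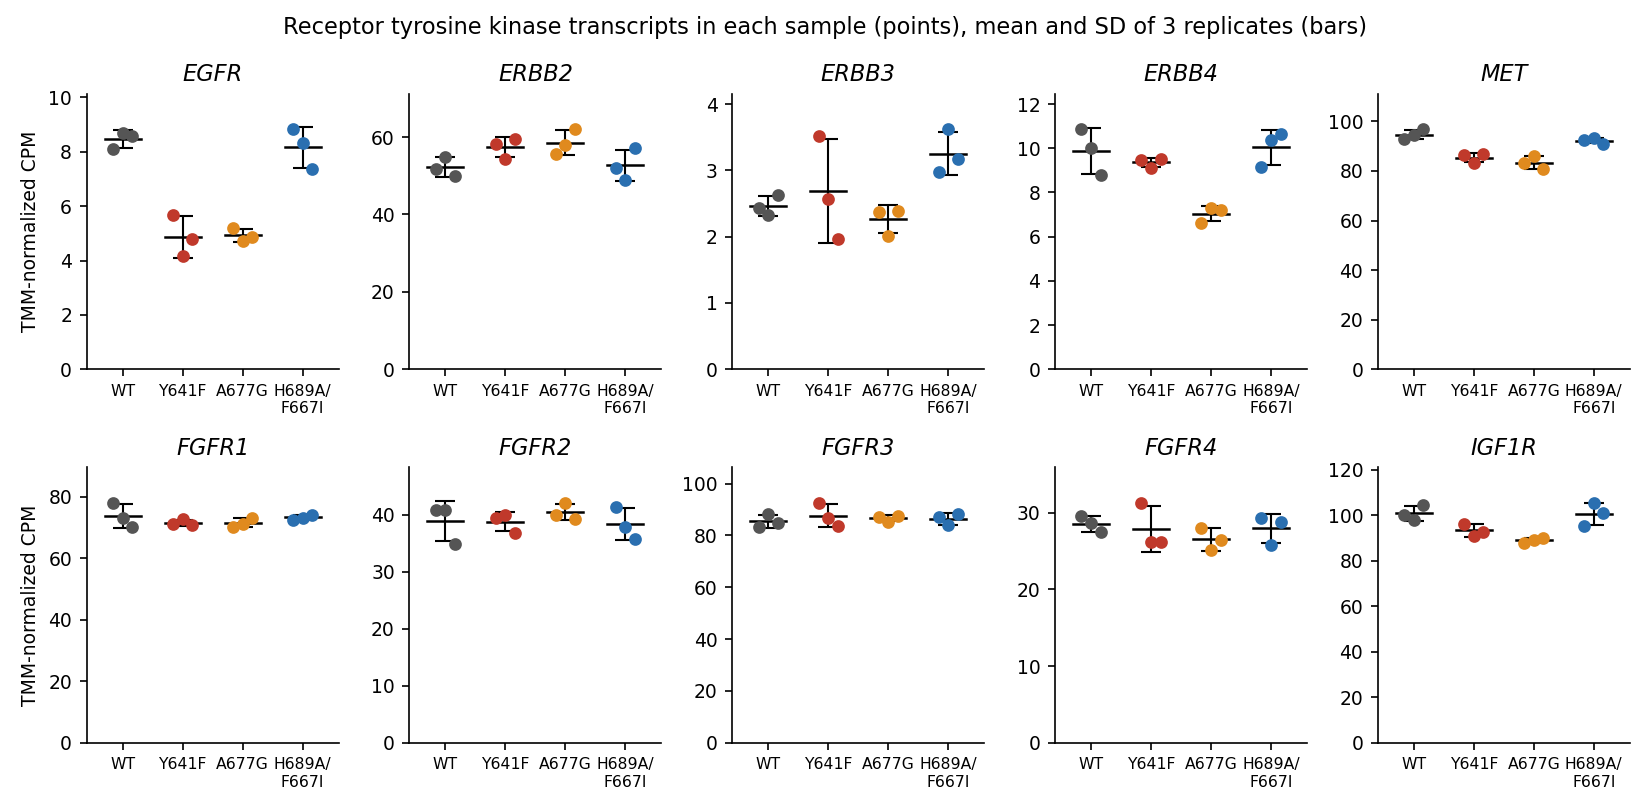
TMM-normalized CPM of the 10 receptors in every sample (points, ordered by replicate) of the 4 lines, with the mean and SD of 3 replicates (black bars) and each vertical axis starting at 0. EGFR is at 4.15 to 5.68 CPM in the GOF lines and 7.35 to 8.82 in the other lines, ERBB4 is lowest in A677G at 6.64 to 7.30, and the FGF receptors overlap among the lines.

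The 4 FGF receptors, which bind fibroblast growth factors together with heparan sulfate, did not pass the threshold in any comparison. *FGFR1* was at 70.2 to 78.0 CPM over the samples of WT and 70.4 to 74.2 over those of the mutants, *FGFR2* at 34.9 to 40.9 and 35.7 to 42.0, *FGFR3* at 83.4 to 88.2 and 83.8 to 92.5, and *FGFR4* at 27.5 to 29.6 and 25.1 to 31.3. Each mutant overlapped with WT for each of them. The log2 fold changes against WT ranged from -0.11 (*FGFR4* in A677G, adjusted p = 0.435 by edgeR) to 0.06 (*FGFR2* in A677G, adjusted p = 0.688). *FGFR4* in Y641F was at -0.04, and at -0.13 without replicate 1 (adjusted p = 0.848 and 0.315 by edgeR). For *FGFR1* and *FGFR3* the 95% intervals reached no further than -0.13 and 0.12, so that a change of the size seen for *EGFR* lay outside them. *FGFRL1*, a related receptor without a kinase domain, was at 42.8 ± 1.02 CPM in WT (SD, n = 3), with log2 fold changes of 0.01 and 0.04 in Y641F and A677G (adjusted p = 0.959 and 0.701 by edgeR). *INSRR* and *MST1R*, the other near relatives of IGF1R and MET, were not among the genes listed.

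Of the 10 receptors, 2 were lower and 0 higher in Y641F, where 5.59% of all genes tested were lower and 2.09% higher at an adjusted p-value under 0.05. In A677G, 4 were lower and 0 higher, against 6.48% and 2.07% of all genes. In the LOF line 0 were called by edgeR, as were few of all genes (0.161% lower and 0.14% higher), and 1 of the 10 (*ERBB3*) had an unadjusted p-value under 0.05, against 8.3% of all genes. DESeq2 and edgeR's exact test called 0 of them there too. The shares of all genes depend on leaving out the 175 genes at 0 in every replicate of A677G or the LOF line. With those kept, 139 of 14438 genes were lower and 30 higher in the LOF line, against 23 and 20 of 14263. In A677G the counts were then 1082 and 312, against 924 and 295, and in Y641F 793 and 288, against 797 and 298. The median log2 fold change of the 10 was -0.04 in Y641F, -0.11 in A677G and -0.01 in the LOF line, against medians of 0.003, 0.005 and 0.002 over all genes. Replicates did not overlap with WT for 3 receptors below and 0 above in Y641F (11.7% and 9.28% of all genes), for 4 below and 1 above in A677G (14.7% and 12.5%) and for 0 below and 1 above in the LOF line (7.14% and 7.89%). The 3 comparisons share the WT samples.

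**Figure D3:**
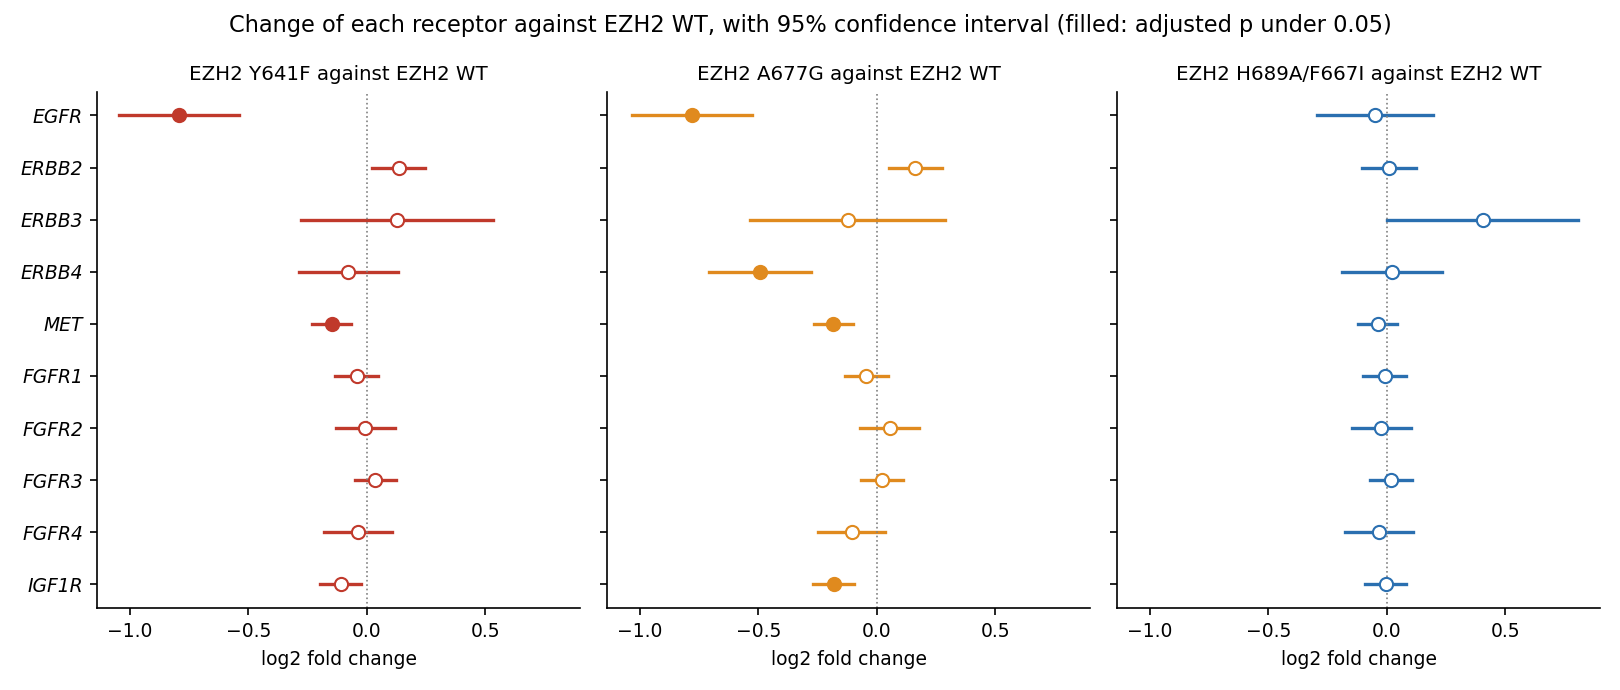
Log2 fold change of each receptor against WT (points) with its 95% confidence interval (lines) in the 3 mutants, filled where the adjusted p-value was under 0.05. EGFR stands near -0.8 in both GOF lines, ERBB4 at -0.49 in A677G only, and no point is filled in the LOF line.

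The GOF lines were compared with each other and, as their mean, with the LOF line, which tests whether their effects differ. Between Y641F and A677G, 0 of the 10 receptors passed the threshold (0.014% of all genes were lower and 0.0701% higher), and *ERBB4*, described above, was the 1 receptor with an unadjusted p-value under 0.05, against 6.91% of all genes. With the genes at 0 in a line kept, 15 of 14438 genes were lower and 163 higher there, against 2 and 10 of 14263. The difference for *EGFR* was -0.01 (95% interval -0.27 to 0.25), and for *MET* 0.04 (-0.05 to 0.12). Against the LOF line, 4 receptors were lower in the mean of the GOF lines and 0 higher, where 8.75% of all genes were lower and 3.81% higher. These were *EGFR* at -0.74 (standard error 0.107, adjusted p = 2.80e-06 from edgeR), *ERBB4* at -0.31 (standard error 0.0903, adjusted p = 0.0175), *IGF1R* at -0.14 (standard error 0.0370, adjusted p = 0.00660) and *MET* at -0.13 (standard error 0.0355, adjusted p = 0.0113). All replicates of both GOF lines were below all those of the LOF line for 2 receptors, *EGFR* and *MET*, against 8.77% of all genes. *ERBB2* was at 0.14 (adjusted p = 0.0509 by edgeR), and was called higher in 8 of 13 other settings and in 3 of 12 fits with a sample left out. *ERBB3* was at -0.40 (adjusted p = 0.122 by edgeR, and 0.0215 without replicate 1 of Y641F). Leaving out replicate 2 of the LOF line ended the calls of *ERBB4* (adjusted p = 0.0989), *IGF1R* (0.136) and *MET* (0.0778), leaving out its replicate 3 that of *ERBB4* (0.116), and leaving out its replicate 1 that of *MET* (0.0543). With the trend with GC content removed, *IGF1R* was at -0.09 and *MET* at -0.07, and both calls ended (adjusted p = 0.0984 and 0.152 by edgeR).

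Ratios of receptors within a sample do not depend on the scaling between libraries. Their size, and the shares below, do depend on the length used for each gene, here merged exons. Per kilobase of the longest transcript, *ERBB2* was at 10.6 CPM, *EGFR* at 0.854 and *ERBB4* at 0.816 in WT. The relative difference of a ratio between lines does not depend on the length. *ERBB2* exceeded *EGFR* 9.53 ± 0.482 times per kilobase (SD, n = 3) in WT and 10.1 ± 1.67 times in the LOF line, but 18.4 ± 2.31 times in Y641F and 18.4 ± 1.69 times in A677G. The 6 GOF samples spanned 15.8 to 20.3 and the other 6 samples 8.98 to 11.98, without overlap. *ERBB2* exceeded *ERBB4* 6.70 ± 0.621 times in WT, 7.72 ± 0.175 in Y641F, 10.5 ± 0.435 in A677G and 6.63 ± 0.615 in the LOF line. *IGF1R* relative to *MET* was 0.551 ± 0.0140, 0.566 ± 0.0118, 0.553 ± 0.0220 and 0.565 ± 0.0261 in the same order. As a share of the summed level per kilobase of the 10 receptors, the ERBB family held 11.5% ± 0.364 in WT, 12.3% ± 0.442 in Y641F, 12.3% ± 0.550 in A677G and 11.8% ± 0.493 in the LOF line, and *MET* held 23.1% ± 0.624, 21.3% ± 0.677, 21.2% ± 0.773 and 22.6% ± 0.581 (SD, n = 3 each). The FGF receptors held the most, 52.7% ± 0.796 in WT and 54.7% ± 0.719 in A677G.

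**Figure D4:**
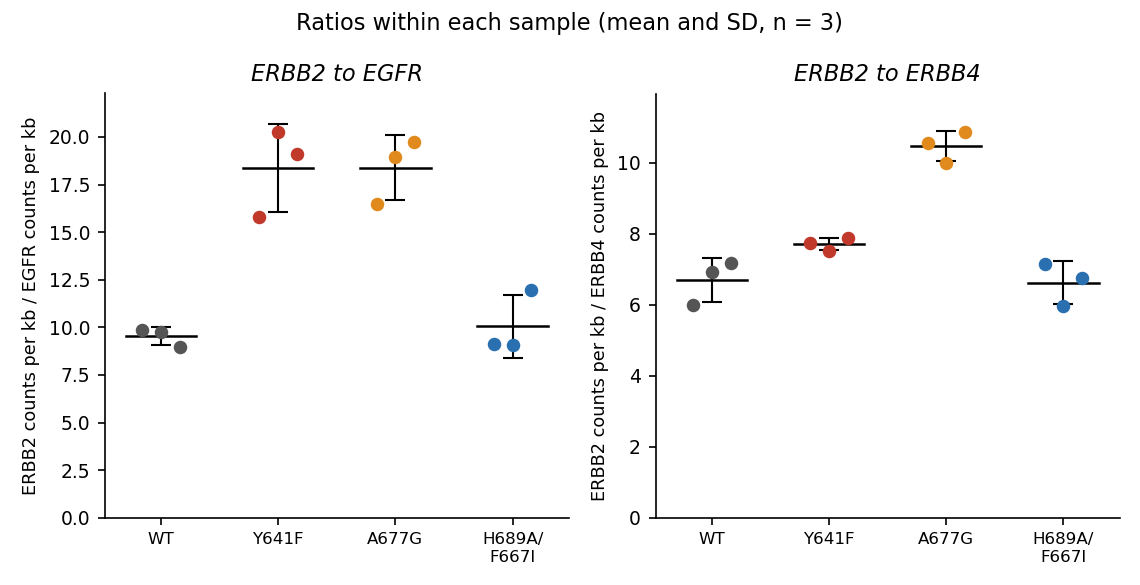
Ratio of ERBB2 to EGFR (left) and of ERBB2 to ERBB4 (right) in counts per kilobase of merged exons within each sample (points), with the mean and SD of 3 replicates in each line (black bars) and axes starting at 0. The ratio to EGFR is 15.8 to 20.3 in the GOF samples and 8.98 to 11.98 in the others, and the ratio to ERBB4 is highest in A677G at 10.0 to 10.9.

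Among 45 other receptor tyrosine kinases, 32 were in the table and tested, of which 10 were lower and 1 higher in Y641F, 10 lower and 1 higher in A677G, and 0 in the LOF line. Of all genes tested, 5.59% were lower and 2.09% higher in Y641F, 6.48% and 2.07% in A677G and 0.161% and 0.14% in the LOF line. The median log2 fold change of the 32 was -0.18, -0.22 and -0.03 in the same order, against 0.003, 0.005 and 0.002 over all genes. Of the called genes, the 4 with the largest change in either GOF line were *KDR*, a receptor of vascular endothelial growth factor (-1.41 in Y641F and -1.24 in A677G), and the ephrin receptors *EPHA10* (-1.10 and -1.05), *EPHB6* (-1.08 and -1.05) and *EPHA8* (-0.62 and -0.77), with adjusted p-values from edgeR between 2.17e-06 and 0.0494. *KDR*, *EPHA10* and *EPHB6* were at 0.738 ± 0.0581, 1.59 ± 0.269 and 1.41 ± 0.122 CPM in WT (SD, n = 3), and their calls depended on single samples, with that of *KDR* in A677G kept in 3 of 12 fits with a sample left out. *EPHA8* was at 12.7 ± 0.584 CPM in WT, 8.24 ± 1.33 in Y641F, 7.44 ± 0.404 in A677G and 11.6 ± 0.402 in the LOF line, and was kept in all of these fits. The receptor that rose was *EPHA7* (0.27 in Y641F, adjusted p = 2.91e-05 from edgeR, and 0.22 in A677G, adjusted p = 0.000315). Against the LOF line, 9 were lower and 1 higher in the mean of the GOF lines (8.75% and 3.81% of all genes).

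Of 32 ligands of the 10 receptors, 9 were listed and 8 tested. The ligand not tested was at 0 in every replicate of A677G or the LOF line, so these counts leave it out. The neuregulins *NRG1* and *NRG2*, ligands of ERBB3 and ERBB4, were lower in both GOF lines, and the other 6 did not pass the threshold. Of all genes tested, 5.59% were lower and 2.09% higher in Y641F, and 6.48% and 2.07% in A677G. *NRG2* was at 5.74 ± 0.996 CPM in WT (SD, n = 3), 3.37 ± 0.402 in Y641F, 3.23 ± 0.727 in A677G and 5.70 ± 0.460 in the LOF line, with log2 fold changes of -0.77 and -0.84 in the GOF lines (adjusted p = 0.00134 and 0.000404 from edgeR). *NRG1* was at 1.40 ± 0.346 CPM in WT, 0.657 ± 0.0917 in Y641F, 0.538 ± 0.233 in A677G and 0.811 ± 0.133 in the LOF line, so that the LOF samples also lay below those of WT. Its log2 fold change was -1.10 in Y641F (adjusted p = 0.0246 by edgeR, and 0.0588 without replicate 1), -1.36 in A677G (adjusted p = 0.00448) and -0.80 in the LOF line, which did not pass the threshold (adjusted p = 0.434). The median log2 fold change of the 8 ligands was -0.15 in Y641F, -0.27 in A677G and -0.09 in the LOF line. Over all genes the medians were 0.003, 0.005 and 0.002. Against the LOF line *NRG2* was lower in the mean of the GOF lines, as were 8.75% of all genes.

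Of the adaptors and kinases of the RAS-ERK and PI3K cascades, all 37 were tested, with 2 lower and 2 higher in Y641F (3 and 3 without replicate 1), 1 lower and 2 higher in A677G and 0 in the LOF line, against 5.59% and 2.09%, 6.48% and 2.07%, and 0.161% and 0.14% of all genes. Their medians were 0.03, 0.02 and -0.02. *IRS2*, an adaptor of the insulin and IGF1 receptors, was lower in Y641F (-0.43, adjusted p = 0.00977 from edgeR). *SOS2*, which loads RAS with GTP, was higher in Y641F (0.24, adjusted p = 0.0112).

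Of 42 feedback regulators and other modulators, 38 were listed and 36 tested. Those not tested were at 0 in every replicate of A677G or the LOF line. Of the 36, 5 were lower and 2 higher in Y641F (7 and 2 without replicate 1, against 5.59% and 2.09% of all genes). In A677G 4 were lower and 3 higher (6.48% and 2.07%), and in the LOF line 1 lower and 0 higher (0.161% and 0.14%). Their medians were 0.01, 0.01 and 0.03. *IGFBP2*, which binds insulin-like growth factors, was at 72.9 ± 2.94 CPM in WT (SD, n = 3), 47.6 ± 6.20 in Y641F, 46.6 ± 0.0920 in A677G and 72.0 ± 0.114 in the LOF line. Its log2 fold changes were -0.62 and -0.65 in the GOF lines (adjusted p = 1.10e-09 and 3.14e-10 from edgeR). *GPC1*, a heparan sulfate proteoglycan, was lower in both (-0.39 and -0.29, adjusted p = 0.000513 and 0.0104). *CD44*, a hyaluronan receptor, was lower in Y641F (-1.94, adjusted p = 0.00818) from 0.690 ± 0.181 CPM in WT. Without replicate 1 of Y641F it was at -3.17 (adjusted p = 0.000357 by edgeR), and the call was kept in 10 of 12 fits with a sample left out. *FLRT2*, a membrane protein with leucine-rich repeats, was lower in all 3 mutant lines, with log2 fold changes of -0.89 in Y641F, -0.47 in A677G and -0.85 in the LOF line (adjusted p = 8.93e-06, 0.0142 and 0.000822 from edgeR). The others called were *IL17RD* (lower) in Y641F, *SDC1* (lower) and *IGFBP5* (higher) in A677G, and *ADAM10* and *GPC3* (higher) in both.

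**Figure D5:**
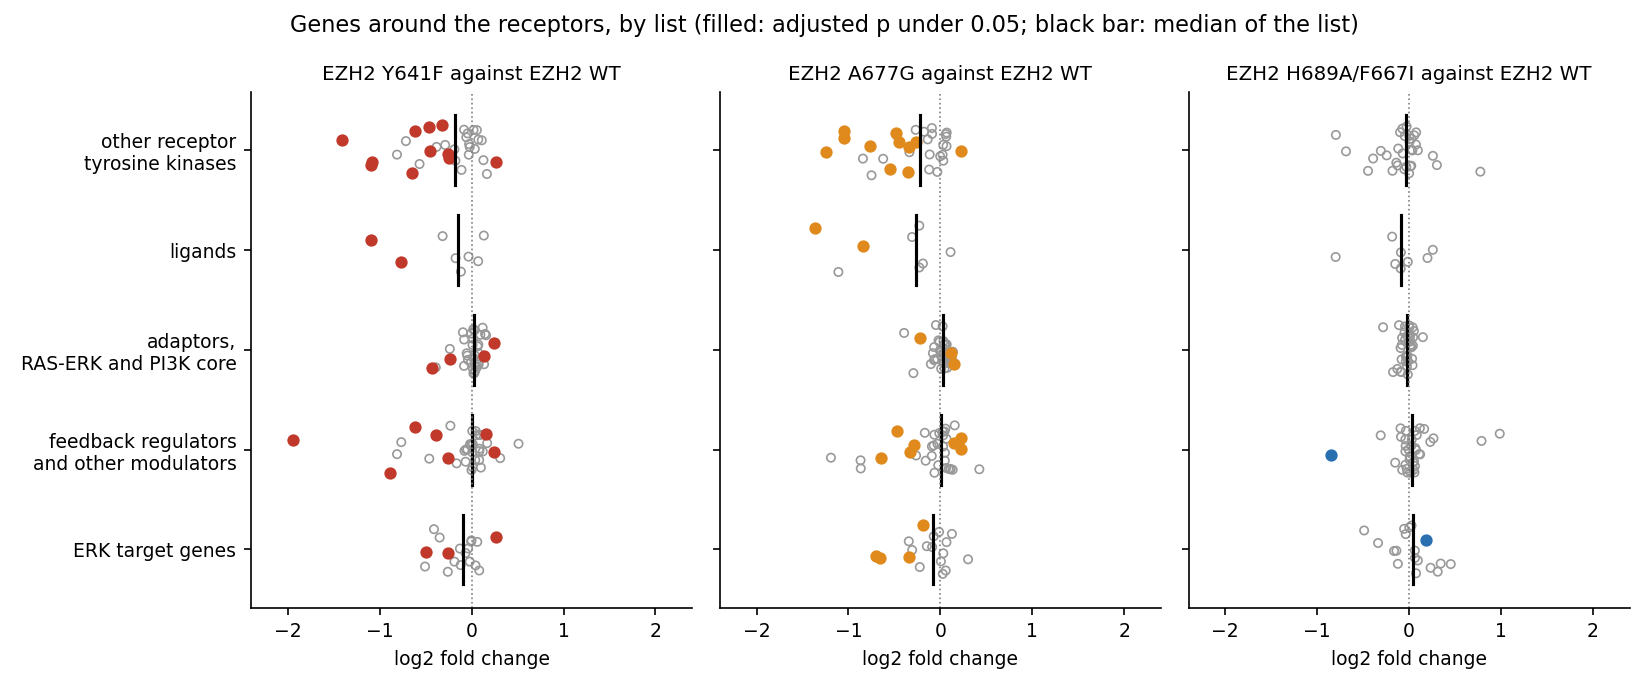
Log2 fold changes against WT of the genes tested in each of 5 lists (1 point per gene, spread vertically for legibility) in the 3 mutants, filled where the adjusted p-value was under 0.05, with the list's median as a black bar. Among the other receptor tyrosine kinases 10 genes are filled below 0 in each GOF line and 0 in the LOF line, while the adaptors and cascade kinases lie close to 0.

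Among 27 genes known as targets of ERK signalling, 20 were listed and 18 tested. Those not tested were at 0 in every replicate of A677G or the LOF line. Of the 18, 2 were lower and 1 higher in Y641F (5.59% and 2.09% of all genes). In A677G 4 were lower and 0 higher (6.48% and 2.07%), and in the LOF line 0 lower and 1 higher (0.161% and 0.14%). Their medians were -0.09, -0.08 and 0.04. The ERK phosphatase *DUSP5* was lower in both GOF lines (-0.50 and -0.66, adjusted p = 0.0318 and 0.00314 from edgeR) and its relative *DUSP4* in A677G (-0.70, adjusted p = 0.00505). *EPHA2*, which is also in the list of other receptors, was lower in both (-0.26 and -0.35, adjusted p = 0.0436 and 0.00486), and *MYC* in A677G (-0.19, adjusted p = 0.00691). In Y641F the call of *DUSP5* was kept in 7 and that of *EPHA2* in 4 of 12 fits with a sample left out. *JUN*, an AP-1 subunit, was called higher in Y641F (0.27, adjusted p = 0.0190), but without replicate 1 it was at 0.06 (adjusted p = 0.501). *CCND1*, the D-type cyclin, was at 79.6 ± 1.36 CPM in WT (SD, n = 3) and 90.3 ± 0.405 in the LOF line, a log2 fold change of 0.18 (adjusted p = 0.0443 from edgeR) that was kept in 4 of 12 fits with a sample left out. Of all the listed genes, *EPHA7*, *MYC*, *IL17RD*, *SDC1*, *IGFBP5*, *ADAM10* and *GPC3* were named after their values were seen.

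The genes whose pattern over the 12 samples was most like that of *EGFR*, by Pearson correlation of log2 CPM among 12040 genes, were *SFRP1* (0.98), *KCTD12* (0.98), *ATRNL1* (0.98), *LAYN* (0.98) and *DAAM2* (0.97). All 5 were lower in both GOF lines, with log2 fold changes of -0.81 to -0.44 in Y641F and -0.70 to -0.51 in A677G. Those most like *MET* were *LEPR* (0.98), *ETS1* (0.96), *DSC3* (0.96), *MBNL3* (0.96) and *PREX2* (0.96), with log2 fold changes of -1.15 to -0.30 and -1.29 to -0.32. The 12 points fall in separate groups of lines and share the libraries, so these correlations mostly restate the difference between the lines and are given as a description. By Spearman correlation 1 of the 5 was shared for *EGFR* (*SFRP1*) and 1 for *MET* (*ETS1*).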

How the data were processed

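RNA was sequenced from 12 samples of 4 HEK293T lines, 3 per line, from TruSeq stranded mRNA libraries. The table deposited by the authors holds raw counts, whole numbers per symbol that were not normalized. Per the labels and the paper's methods, they trimmed reads with Trim Galore 0.6.5, aligned them to GRCh38 with STAR 2.7.9a, quantified with Salmon 1.2.0 and tested with edgeR 3.16. How Salmon's estimates became counts per symbol is not given in the sources used here. Depth limits the precision of genes with few counts, which the reported standard errors include.

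The analysis used R 4.3.3 and edgeR 4.0.16. The 175 genes with 0 counts in every replicate of the A677G line or of the LOF line were left out, as in an earlier processing of these data. The other 14263 genes passed filterByExpr. TMM factors and the quasi-likelihood test were used on all samples, with 1 coefficient per line, and Benjamini-Hochberg adjusted p-values (over the 14263 genes) under 0.05 were called. The common biological coefficient of variation was 0.0471. Log2 CPM used a prior count of 2. The receptors and lists of genes were chosen with earlier results of these data known. Named from each list were up to 4 called genes with the largest changes in the GOF mutants and up to 3 in the other comparisons, and the 4 closest relatives of the receptors. Some of the genes this rule gives are not reported here. Genes like *EGFR* or *MET* were the 5 with the highest correlation among genes whose mean log2 CPM was 1 or more. Positions and lengths came from GENCODE and promoters from RefSeq, whose table held windows for 8 of the 10 receptors. Promoter letters were counted on both strands.

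Alternatives were edgeR's exact test, DESeq2 1.42.0, limma voom (3.58.1) with quality weights, a robust fit, other scalings and filters, only the compared groups, the replicate number as a block, removal of the trend with GC content, a minimum log2 fold change of 1 and each sample left out. A robust curve for the GC trend was added after seeing the data. The procedure was tested on simulated data.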

Additional observations from a re-analysis of the deposited data

Results flagged for a closer look

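For 4 receptors the mean effect of the GOF lines differed from that of the LOF line, by edgeR's quasi-likelihood test of the difference itself. Of all genes, 8.75% were lower and 3.81% higher by this test. The mean effect of Y641F and A677G minus the effect of LOF was -0.74 on the log2 scale for *EGFR*, -0.31 for *ERBB4*, -0.13 for *MET* and -0.14 for *IGF1R*, with adjusted p-values of 2.80e-06, 0.0175, 0.0113 and 0.00660. All replicates of both GOF lines were below all those of the LOF line for *EGFR* and *MET*, which 8.77% of all genes showed, and overlapped for *ERBB4* and *IGF1R*. For *ERBB4* the log2 fold changes against WT were -0.49 in A677G, -0.08 in Y641F and 0.02 in the LOF line. The direct difference between Y641F and A677G, 0.41, did not pass the threshold (adjusted p = 0.156 by edgeR). Without replicate 2 of the LOF line the calls of *ERBB4*, *IGF1R* and *MET* ended (adjusted p = 0.0989, 0.136 and 0.0778 by edgeR). Removal of the trend with GC content ended those of *MET* and *IGF1R* (adjusted p = 0.152 and 0.0984 by edgeR). Groups of 3 samples were not tested for single samples far from the others.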

How the results depend on the processing

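In no alternative did a called receptor change direction. For Y641F against WT the number of receptors called went from 2 to 1 when the fit held only the compared groups, where *MET* was lost (adjusted p = 0.0556 by edgeR), and ranged from 1 to 2 with a sample left out. With a minimum log2 fold change of 1 in size it was 0 there, 0 in A677G and 0 for the GOF mean against the LOF line. That last count ranged from 1 to 5 with a sample left out. For Y641F against A677G it went from 0 to 1 with no filter on low counts and to 1 with the genes at 0 kept, the receptor being *ERBB4*. The exact test was not run for the GOF mean, for which edgeR's form gives no contrast. Ranks per kilobase were the same for 4 of 10 receptors with the longest transcript.

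With the trend with GC content removed, *MET* in Y641F (adjusted p = 0.0940) and *IGF1R* in A677G (0.0546) were no longer called and *ERBB2* was called higher in both (0.0231 and 0.00457). That setting put the median of all genes at 0.04 in Y641F and 0.06 in A677G and turned the split of all calls from 797 lower and 298 higher to 692 and 786, and from 924 and 295 to 838 and 1275. For the GOF mean against the LOF line the split went from 1248 and 544 to 1100 and 1911. There *MET* (0.152) and *IGF1R* (0.0984) were lost and *ERBB2* was called higher (adjusted p = 0.00453 by edgeR). With a robust curve, added after seeing the data, the splits were 835 and 291, 983 and 314, and 1346 and 573, and *MET* and *IGF1R* kept these calls. *ERBB2* was called higher with this curve in A677G (adjusted p = 0.0372 by edgeR) and for the GOF mean against the LOF line (0.0386), but not in Y641F.

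Replicate numbers did not pair the samples. Deviations of same-numbered samples correlated at -0.0557 to 0.0501 over 18 pairs, and in 9 of 36 cases a sample correlated best with its own number. With the replicate block, 2 receptors were called in Y641F, 4 in A677G, 0 in the LOF line, 0 between the GOF lines and 5 for the GOF mean against the LOF line, where *ERBB2* was added (adjusted p = 0.0440). Over all genes the block gave 809 lower and 299 higher in Y641F and 933 and 305 in A677G.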
